A study of Mus musculus with 4 samples.

Results

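The 7 genes described here make, store, take up and break down γ-aminobutyric acid (GABA), the main inhibitory transmitter of the cortex. They are Gad1, Gad2, Slc32a1, Slc6a11, Slc6a13, Abat and Aldh5a1, which were found by symbol, and all 7 were present among the 17778 genes of the table. Polyadenylated RNA was sequenced from C57BL/6 mice (C57BL/6J in the methods of the study), and the tissue was the mPFC (medial prefrontal cortex), which lies at the front of the neocortex. The control group (2 libraries) came from mice kept without the stress treatment. Control mice of the study also went through the behavior tests, among them forced swimming. The CUMS group (2 libraries) came from mice under chronic unpredictable mild stress (CUMS). In it restraint, tilted or damp cages, noise, strobe light and disturbed day length changed without a pattern for several weeks. Social isolation was also part of the stress, but the study excepts it from the conditions picked at random. The mice were males that entered as juveniles at the end of the third postnatal week, and only stressed mice that changed in all behavior tests were taken as depression-like, so that resilient mice are not represented. Tissue from both sides of the brain was collected a day after the last test. The comparison asked whether transcripts of the GABA system differed between depression-like and control mice.

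GABA is made from glutamate by glutamate decarboxylase, of which neurons have a pair of forms, encoded by Gad1 and Gad2. The vesicular transporter of Slc32a1 packs it into synaptic vesicles, plasma membrane transporters of the Slc6 family clear it from the extracellular space into neurons and astrocytes, and the mitochondrial enzymes of Abat and Aldh5a1 turn it into succinate for the citric acid cycle. In neocortex the decarboxylases and the vesicular transporter mark inhibitory interneurons, and they equally mark the inhibitory neurons of striatum, septum, hypothalamus and olfactory bulb. Slc6a11 (GAT3) is mainly astrocytic, and Slc6a13 (GAT2) is found mostly in meningeal and vascular cells.

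The values were read counts scaled to gene length in kilobases and to sequencing depth (RPKM), which allows levels to be compared between genes. The table held 1 mean per gene and group and no value for a single library. No difference in these values could therefore be set against the spread between mice, and no difference here carries a p-value. The study itself also compared Gad1 and Slc6a11 between the groups by quantitative PCR, and reports both as lower in depression-like mice. Those measurements are not part of the values described here. The fragments behind each mean were estimated from the smallest steps in the table, at 8032129 per control library and 8163265 per CUMS library. Intervals in brackets are 95% intervals from these fragment numbers, and they cover counting error only. The median log2 ratio of CUMS over control was -0.015 over 14257 genes that reached 0.5 RPKM in either group, and the median absolute log2 ratio was 0.10 over 9397 genes with at least 5 RPKM. The dissected tissue carried the transcripts of neocortical excitatory neurons, with the vesicular glutamate transporter Slc17a7 at 635 RPKM in control mice and 791 RPKM in CUMS mice.

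Of the 7 genes, 6 had a lower mean in CUMS and 1 had a higher mean. Gad1, Gad2, Slc32a1 and Slc6a11 were lower by more than 1.5-fold, the fold threshold of the study. Among all genes that reached 0.5 RPKM in either group, 4.42% were lower by this much, and among those with at least 5 RPKM, where all 7 genes lie, 1.28% were. These 4 genes are ones that the study itself lists as lowered in the same libraries, so that the count of 4 of 7 is not independent evidence of a direction. The counting interval lay below 0 in 6 of the 7 genes and in 20.5% of genes with at least 5 RPKM. The median log2 ratio of the 7 genes was -0.60, and their summed level was 504 RPKM in control mice and 340 RPKM in CUMS mice.

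**Figure D1:**
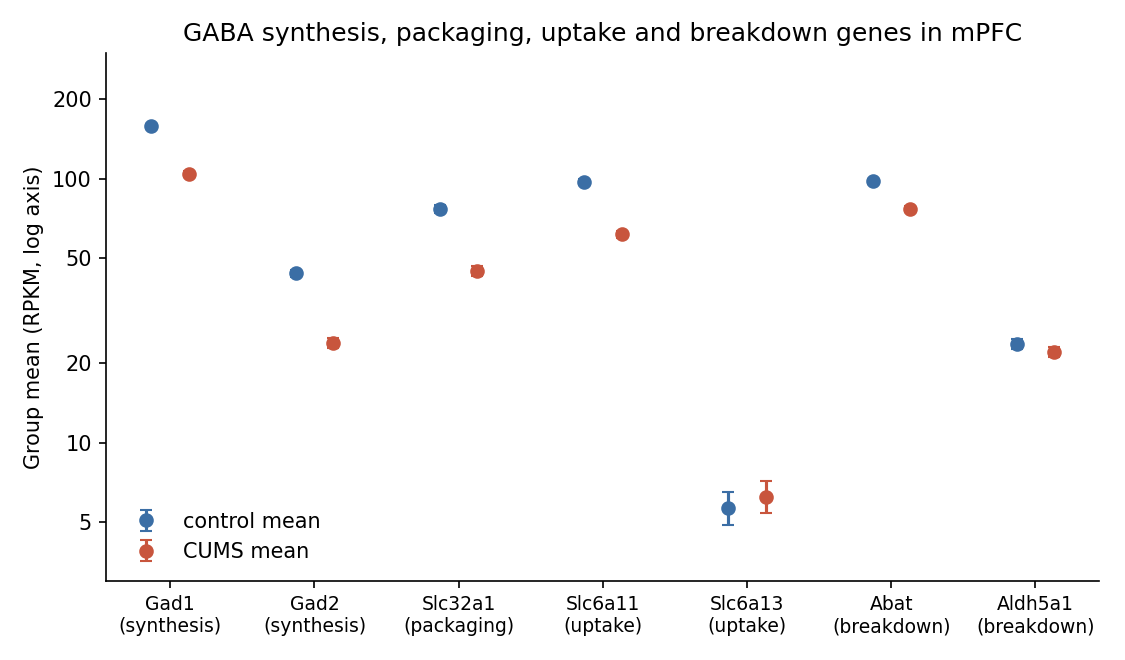
Group means of the 7 GABA genes in RPKM on a log axis, control in blue and CUMS in red, with 95% counting intervals as bars (hidden by the point where they are narrow). Gad1, Gad2, Slc32a1, Slc6a11 and Abat were lower in CUMS with intervals that do not meet, while the intervals of Slc6a13 and Aldh5a1 overlapped between the groups.

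The promoters of the 4 genes that were lower by more than 1.5-fold are shown because these genes were lower together. Each window runs from 250 bases before the RefSeq transcription start to 50 bases after it, 5′ to 3′ in GRCm38.p6. The windows of Gad1, Gad2 and Slc32a1 lie inside the gene spans given below, so that any start further upstream was not searched. Capitals mark matches on either strand. The motifs searched were the TATA box TATAAA, the promoter element CCAAT, the Sp1-type box GGGCGG, the E-box motif CACGTG, and the homeodomain core TAATTA of the kind that DLX factors of inhibitory neurons bind.
Gad1, chr2:70561879-70562178, plus strand: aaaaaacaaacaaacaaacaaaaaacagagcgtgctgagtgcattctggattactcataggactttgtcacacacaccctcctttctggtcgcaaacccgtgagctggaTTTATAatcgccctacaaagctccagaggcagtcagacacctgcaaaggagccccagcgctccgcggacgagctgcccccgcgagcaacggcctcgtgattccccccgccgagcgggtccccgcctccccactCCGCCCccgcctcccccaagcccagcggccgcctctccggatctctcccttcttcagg
Gad2, chr2:22622077-22622376, plus strand: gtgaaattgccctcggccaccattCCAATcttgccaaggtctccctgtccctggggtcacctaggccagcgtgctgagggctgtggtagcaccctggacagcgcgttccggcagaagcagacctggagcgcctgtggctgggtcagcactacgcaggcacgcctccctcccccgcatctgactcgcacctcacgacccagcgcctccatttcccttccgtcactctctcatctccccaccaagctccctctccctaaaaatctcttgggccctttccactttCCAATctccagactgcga
Slc32a1, chr2:158610508-158610807, plus strand: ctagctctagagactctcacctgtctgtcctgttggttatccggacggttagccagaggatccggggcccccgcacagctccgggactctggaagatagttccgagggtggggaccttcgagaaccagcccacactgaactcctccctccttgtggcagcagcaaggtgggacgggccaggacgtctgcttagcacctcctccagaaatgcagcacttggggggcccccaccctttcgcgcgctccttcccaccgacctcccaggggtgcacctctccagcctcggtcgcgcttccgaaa
Slc6a11, chr6:114130991-114131290, plus strand: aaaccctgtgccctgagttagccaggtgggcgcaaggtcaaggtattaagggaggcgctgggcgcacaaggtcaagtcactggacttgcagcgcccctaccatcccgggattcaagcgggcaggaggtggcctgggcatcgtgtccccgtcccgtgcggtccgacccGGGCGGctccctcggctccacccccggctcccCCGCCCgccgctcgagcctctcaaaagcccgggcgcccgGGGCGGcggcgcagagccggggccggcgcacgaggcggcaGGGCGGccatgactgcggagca

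The Gad1 window held 1 TATAAA at position -141 and 1 GGGCGG at position -8 from the start, both read on the other strand. Of all 32851 promoter windows, 13.6% held TATAAA and 35.7% held GGGCGG. The Gad2 window held 2 matches to CCAAT, a motif found in 37.4% of windows. Slc6a11 held 4 matches to GGGCGG, and its window was 72.3% G and C against a median of 52.7% over all windows. The Slc32a1 window held no match to any of the 5 motifs. CACGTG and TAATTA, found in 7.15% and 5.29% of windows, were in none of the 4. No motif was shared by all 4 windows, and GGGCGG was shared by those of Gad1 and Slc6a11. These matches describe the letters of the windows and not the binding of any factor.

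Both decarboxylase genes were lower in depression-like mice. Gad1 (gene 14415, chromosome 2, 70561303 to 70602014) encodes the form that makes most of the GABA in the brain. Its mean was 158 RPKM (155 to 162) in control and 104 RPKM (102 to 107) in CUMS, on 8059 and 5391 fragments, which is 34.1% lower. The log2 ratio of -0.60 (-0.65 to -0.55) lay so close to the threshold of 1.5-fold that its counting interval reached across it. Gad2 (gene 14417, chromosome 2, 22621015 to 22693877) encodes the form that is concentrated at nerve terminals. Its mean was 43.9 RPKM (42.6 to 45.3) in control and 23.9 RPKM (23.0 to 24.98) in CUMS, on 3927 and 2174 fragments. Gad2 was 45.5% lower, with a log2 ratio of -0.88 (-0.95 to -0.80), the lowest of the 7 genes. Only 39 of the 9397 genes with at least 5 RPKM had a lower ratio than Gad2, and 107 had a lower ratio than Gad1.

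How much lower they were differed between the decarboxylase genes by more than counting error. On the log2 scale the ratio of Gad1 exceeded that of Gad2 by 0.27 (0.18 to 0.36). The level of Gad1 was 3.60 times that of Gad2 (3.47 to 3.74) in control and 4.36 times (4.14 to 4.58) in CUMS. Gad1 thus made up 78.3% of the summed level of both genes in control and 81.3% in CUMS, while this sum was 202 RPKM in control mice and 128 RPKM in CUMS mice. Whether this shift is larger than the spread between mice cannot be seen from group means.

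Slc32a1 (gene 22348, chromosome 2, 158607260 to 158615747) encodes VGAT, the transporter that fills synaptic vesicles with GABA and glycine. Its mean was 76.7 RPKM (74.2 to 79.3) in control and 44.7 RPKM (42.7 to 46.7) in CUMS, on 3383 and 1998 fragments, which is 41.8% lower. The log2 ratio of -0.78 (-0.86 to -0.70) lay between those of Gad2 and Gad1. It was lower than that of Gad1 by 0.18 on the log2 scale (0.08 to 0.27), whereas Gad2 and Slc32a1 differed by -0.10 (-0.21 to 0.01), an interval that includes 0. An antisense gene, Gm14205, covers 24.9% of the exon bases of Slc32a1, and the use of strand in counting was not stated, so that reads of the pair cannot be told apart there.

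Among the plasma membrane transporters, the astrocytic one was lower. Slc6a11 (gene 243616, chromosome 6, 114131241 to 114249886) had a mean of 97.6 RPKM (95.2 to 100.01) in control and 61.7 RPKM (59.8 to 63.6) in CUMS, on 6279 and 4030 fragments. It was 36.8% lower, with a log2 ratio of -0.66 (-0.72 to -0.61). The difference of its log2 ratio from that of Gad1 was -0.06 (-0.14 to 0.02), so that these genes of astrocytes and of inhibitory neurons did not differ beyond counting error in how much lower they were.

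Slc6a13 (gene 14412, chromosome 6, 121300288 to 121337721) was the only one of the 7 genes with a higher mean in CUMS. Its mean was 5.66 RPKM (4.88 to 6.52) in control and 6.245 RPKM (5.45 to 7.16) in CUMS, on 190 and 213 fragments, and it was the lowest in level of the 7. Its log2 ratio of 0.14 had an interval from -0.15 to 0.43, so that a difference was not detectable at this depth. Compared with Slc6a13, Slc6a11 had a log2 ratio lower by 0.80 (0.52 to 1.09).

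Slc6a12, which encodes a transporter of betaine and GABA and does not belong to the 7, starts 4.85 kb beyond the end of Slc6a13 on chromosome 6. Slc6a12 was 0.195 RPKM in control mice and 0.50 RPKM in CUMS mice, on 8 and 20 fragments, a log2 ratio of 1.36 (0.05 to 2.69).

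The genes of GABA breakdown were lower by less. Abat (gene 268860, chromosome 16, 8513429 to 8621568) encodes GABA transaminase, which converts GABA to succinic semialdehyde. Its mean was 98.0 RPKM (95.7 to 100.3) in control and 76.8 RPKM (74.8 to 78.8) in CUMS, on 7228 and 5748 fragments, which is 21.7% lower, with a log2 ratio of -0.35 (-0.40 to -0.30). Aldh5a1 (gene 214579, chromosome 13, 24907579 to 24937661) encodes succinic semialdehyde dehydrogenase, which completes the path to succinate. Its mean was 23.7 RPKM (22.7 to 24.7) in control and 22.1 RPKM (21.2 to 23.1) in CUMS, 6.66% lower, and its log2 ratio of -0.10 (-0.19 to -0.01) was no larger in size than the median absolute ratio of genes with at least 5 RPKM. Gad1 had a log2 ratio lower than that of Abat by 0.25 (0.18 to 0.32), and that of Abat was lower than that of Aldh5a1 by 0.25 (0.15 to 0.35). The antisense transcript 4932702P03Rik covers 14.1% of the exon bases of Aldh5a1 and was itself listed at 11.965 RPKM in control mice and 10.28 RPKM in CUMS mice, and reads of these genes cannot be told apart there either.

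In order of level, control mice had Gad1 first, then Abat and Slc6a11, followed by Slc32a1, Gad2, Aldh5a1 and Slc6a13. Abat and Slc6a11 did not differ beyond counting error in control (a level ratio of 1.00, 0.97 to 1.04). The order was the same in CUMS, but Abat then stood 1.24 times (1.20 to 1.30) above Slc6a11. Gad2 was 1.85 times (1.76 to 1.95) the level of Aldh5a1 in control and 1.08 times (1.02 to 1.15) in CUMS. Gad1 was 1.61 times (1.56 to 1.67) the level of Abat in control and 1.36 times (1.31 to 1.41) in CUMS. Gad2 was below Abat in both groups, at 43.9 against 98.0 RPKM in control and 23.9 against 76.8 RPKM in CUMS. Whether a decarboxylase gene stood closer to a breakdown gene in CUMS therefore depends on the pair chosen.

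**Figure D2:**
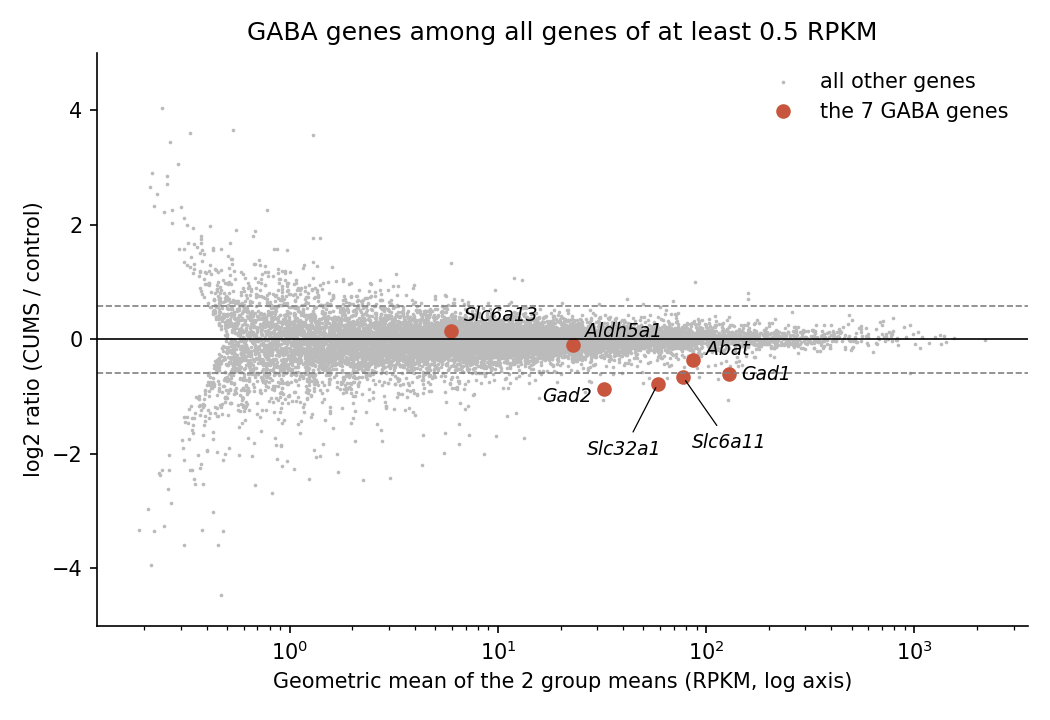
Log2 ratio of CUMS over control against the geometric mean of both group means (RPKM, log axis) for genes that reached 0.5 RPKM in either group and had no mean listed at 0.01, with the 7 GABA genes in red and dashed lines at 1.5-fold. Gad2, Slc32a1, Slc6a11 and Gad1 lie at or under the lower line at levels where few genes do, whereas Slc6a13 and Aldh5a1 lie within the bulk of the genes.

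Matches to microRNA seeds in the 3′ ends of these genes are shown because the study takes up microRNAs as regulators of Slc6a11 and Gad2. For miR-15b-5p and miR-879-5p the study goes beyond prediction. It reports that their mimics lowered a luciferase reporter with the 3′ end of Slc6a11, and that mutated binding sites reversed this. It also reports inverse correlations of both with Slc6a11 by quantitative PCR. The sites mutated there were not compared with the matches below. The microRNA levels were not analysed here. The study pairs 7 known microRNAs with Slc6a11 or Gad2, and all 7 were found in RefSeq. The mature sequences of 3 of them follow, 5′ to 3′, with the seed (bases 2 to 8) in capitals.
miR-15b-5p: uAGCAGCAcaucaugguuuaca
miR-879-5p: aGAGGCUUauagcucuaagcc
miR-144-3p: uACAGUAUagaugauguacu

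Below are stretches of the GENCODE transcripts with the 7 bases complementary to a seed in capitals and the genome position of those bases (GRCm38, plus strand).
Slc6a11, chr6:114249480-114249486, miR-15b-5p match: gggaagctgcccgtTGCTGCTa
Gad2, chr2:22693530-22693536, miR-15b-5p match: ggtcttggagaaggTGCTGCTc
Slc6a11, chr6:114248226-114248232, miR-879-5p match: taagacagagagcaAAGCCTCc
Slc6a11, chr6:114248012-114248018, miR-144-3p match: agtccttgtattatATACTGTc
Slc32a1, chr2:158615626-158615632, miR-144-3p match: ggtcgtggaactgtATACTGTg

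For each gene the transcript with the longest stretch after the stop codon was searched. The stretch of Slc6a11 (2212 bases) held 5 matches, to 5 of the 6 microRNAs that the study pairs with it, and none to miR-148b-5p. Gad2 (3528 bases) held 2 matches, 1 to miR-15b-5p and 1 to miR-148b-5p. Of the 3 microRNAs paired with Gad2, only miR-15b-5p had a match there, whereas miR-3103-5p and miR-16-1-3p had none, and miR-148b-5p is not paired with it. Gad1 (1218 bases) held 2, both to miR-144-3p, and Slc32a1 (744 bases) held 1. Abat (2942 bases) held 3 matches and Aldh5a1 (3982 bases) held 2 that overlap, so that genes that were lower by less than 1.5-fold had matches as well. Slc6a13 (317 bases) held 0. The miR-15b-5p seed had a match in 20.3% of 21020 genes, that of miR-879-5p in 9.51% and that of miR-144-3p in 11.9%. The shares were 17.9% for miR-3103-5p, 13.9% for miR-148b-5p, 11.3% for miR-16-1-3p and 6.33% for miR-190b-5p. The median stretch of these 21020 genes was 961 bases, so that the shares do not hold for stretches as long as those of Slc6a11 and Gad2. A match of 7 bases is a description of the sequence and does not show that a microRNA acts there.

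Other genes of the GABA and glutamate cycle were listed by role and not by how they moved. None of these 28 genes was lower by more than 1.5-fold, and 1 (Slc6a12) was higher by more than that, against 4.42% lower and 2.78% higher among all genes with at least 0.5 RPKM. Their median log2 ratio was -0.01, with 12 genes higher, 15 lower and 1 equal. The counting interval lay below 0 in 6 of the 28 genes, beside 20.5% of genes with at least 5 RPKM. It lay above 0 in 5, for which no share over all genes was computed. The summed level of the 28 genes was 2280.06 RPKM in control mice and 2166 RPKM in CUMS mice. Glul, the astrocytic glutamine synthetase, was 684 RPKM in control mice and 587 RPKM in CUMS mice, a log2 ratio of -0.22 (-0.25 to -0.20).

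The lowest ratios among these genes belonged to Slc38a2, Pdxk and Slc38a1. Slc38a2 and Slc38a1, which carry glutamine into cells, had log2 ratios of -0.31 (-0.41 to -0.21) and -0.22 (-0.29 to -0.16). Pdxk, a kinase that makes the pyridoxal phosphate cofactor of both decarboxylases and of GABA transaminase, had a log2 ratio of -0.28 (-0.34 to -0.23). The highest were Slc6a12, Slc38a5, another glutamine transporter (0.30, -0.23 to 0.83), and Sucla2, a subunit of the succinyl-CoA ligase of the citric acid cycle (0.14, 0.03 to 0.24). Each of the 3 lowest was closer to 0 than Gad1, Gad2, Slc32a1 and Slc6a11.

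**Figure D3:**
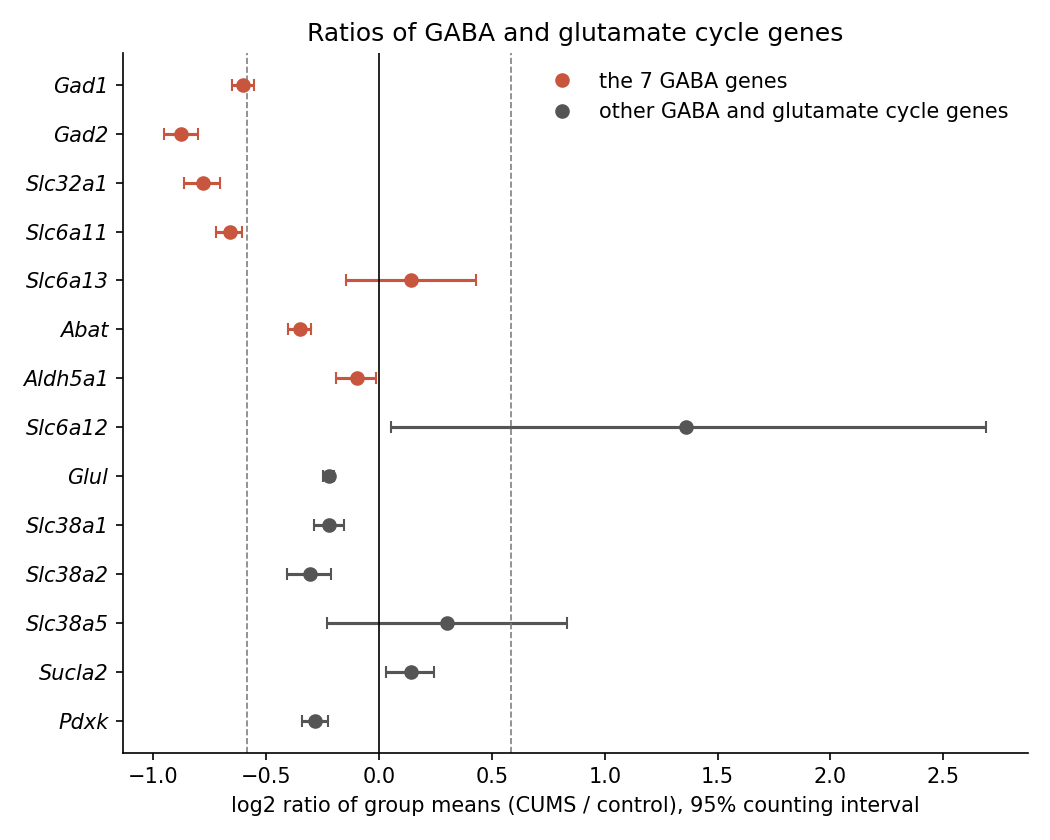
Log2 ratio of CUMS over control with 95% counting intervals for the 7 GABA genes (red) and for the named genes of the wider GABA and glutamate cycle (grey), with dashed lines at 1.5-fold. The intervals of Gad2, Slc32a1 and Slc6a11 lie wholly below the lower line and that of Gad1 crosses it, while among the grey genes Slc6a12, on 8 and 20 fragments, has an interval from 0.05 to 2.69.

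Bulk tissue cannot tell fewer cells of a type from less RNA per cell, and a dissection of mPFC borders on striatum, septum and olfactory areas whose neurons also use GABA. Marker genes were therefore described beside the GABA genes. Over 21 cortical interneuron markers with at least 0.5 RPKM, 11 were higher and 10 lower in CUMS, and the median log2 ratio was 0.05. Of these, 2 (Calb2 and Chrna2) were lower by more than 1.5-fold, against 4.42% of all genes with at least 0.5 RPKM. The summed level of all 22 was 1137 RPKM in control mice and 1317 RPKM in CUMS mice, and none was listed at 0.01. Sst, the peptide of somatostatin interneurons, was 314 RPKM in control mice and 326 RPKM in CUMS mice (0.05, -0.04 to 0.12 as log2 ratio). Cck, a peptide of interneurons and also of excitatory cells, was 421 and 565 RPKM (0.42, 0.36 to 0.47). Calb2, which marks calretinin cells, was 36.1 and 19.1 RPKM (-0.92, -1.09 to -0.75), and Chrna2, a nicotinic receptor subunit, rested on 32 and 15 fragments (-1.15, -2.11 to -0.19). Cck made up most of the difference in the sum, and without it the sum of the other 21 was 716 RPKM in control mice and 752 RPKM in CUMS mice. The counting interval lay below 0 in 7 of the 21 markers and above 0 in 6. Among genes with at least 5 RPKM, a level that some of these markers did not reach, it lay below 0 in 20.5%. No such share was computed for intervals above 0. The following markers were picked out after their values were seen. Lhx6 and Sox6, transcription factors of many cortical interneurons, were lower in CUMS, with log2 ratios of -0.43 (-0.62 to -0.24) and -0.58 (-0.81 to -0.36). Vip and Npy went the other way, with log2 ratios of 0.51 (0.31 to 0.70) and 0.27 (0.12 to 0.40).

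The genes of the Dlx family and other genes of GABAergic fate were lower along with the decarboxylases. All 12 were lower in CUMS, 7 of them by more than 1.5-fold, against 4.42% of all genes with at least 0.5 RPKM. Their median log2 ratio was -0.63, and their summed level was 109 RPKM in control mice and 80.5 RPKM in CUMS mice. Dlx1, a homeodomain factor kept by adult interneurons, was 19.8 RPKM in control mice and 13.025 RPKM in CUMS mice (-0.60, -0.76 to -0.45), and Meis2, strongly expressed in striatum, was 36.2 and 33.8 RPKM (-0.10, -0.18 to -0.03). Nkx2-1, which in the adult forebrain marks septal, hypothalamic and pallidal neurons, was 2.565 and 0.67 RPKM (-1.94, -2.64 to -1.32). Sp8, found in olfactory bulb interneurons and in some cortical ones, was 2.84 and 1.42 RPKM (-0.997, -1.36 to -0.65).

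Markers of neighboring regions were lower as well. Striatal markers were lower in 16 of 18 genes, 3 of them by more than 1.5-fold, against 4.42% of all genes with at least 0.5 RPKM. The counting interval lay below 0 in 13 of the 18, beside 20.5% of genes with at least 5 RPKM, and above 0 in 1. The striatal markers had a median log2 ratio of -0.30 and sums of 644 RPKM in control mice and 536 RPKM in CUMS mice. Among them Ppp1r1b and Penk had log2 ratios of -0.17 and -0.46, and Isl1 and Ido1 had the lowest, -1.19 and -1.31. Septal and hypothalamic markers were lower in 21 of 22 genes, 20 of them by more than 1.5-fold, against 4.42% of all genes with at least 0.5 RPKM. Pmch was the 1 that was higher. The median was -1.64, and the sums were 401 and 221 RPKM. In this list Zic1, Baiap3, Ecel1, Nts, Prkcd, Peg10, Dlk1, Magel2, Hap1 and Ngb are genes that the study itself lists as lowered in the same libraries. The counts of this list are therefore not independent evidence of a direction. Tmem130 and Hap1 were the highest in level (log2 ratios of -0.45 and -0.67), and Gal and Gbx1 had the lowest ratios, on 23 and 1 fragments for Gal and 35 and 3 fragments for Gbx1. Among the olfactory bulb markers, Doc2g and Th are likewise genes that the study lists as lowered. Olfactory bulb markers were lower in 11 of 11 genes, with 7 by more than 1.5-fold, against the same 4.42%. The counting interval lay below 0 in 9 of these 11, beside 20.5% of genes with at least 5 RPKM. It included 0 for Slc17a6 (-0.35 to 0.28) and Reln (-0.22 to 0.02). The median of these markers was -1.09, and their sums were 67.2 and 40.4 RPKM. Of these, Kctd12 (-0.11) and Doc2g (-1.68) were the highest in level, and the sensory neuron genes S100a5 and Omp, on 15 and 51 fragments in control, were listed at 0.01 in CUMS. For neocortical excitatory neurons, 12 of 14 markers were higher, the median was 0.30, and the sums were 1719 and 2058 RPKM. Slc17a7 and Camk2a had log2 ratios of 0.32 and 0.21, and Cux1 and Bcl11b the lowest, -0.17 and -0.03. The part of tissue from neighboring regions in the lower levels of Gad1, Gad2, Slc32a1 and Slc6a11 was not tested.

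**Figure D4:**
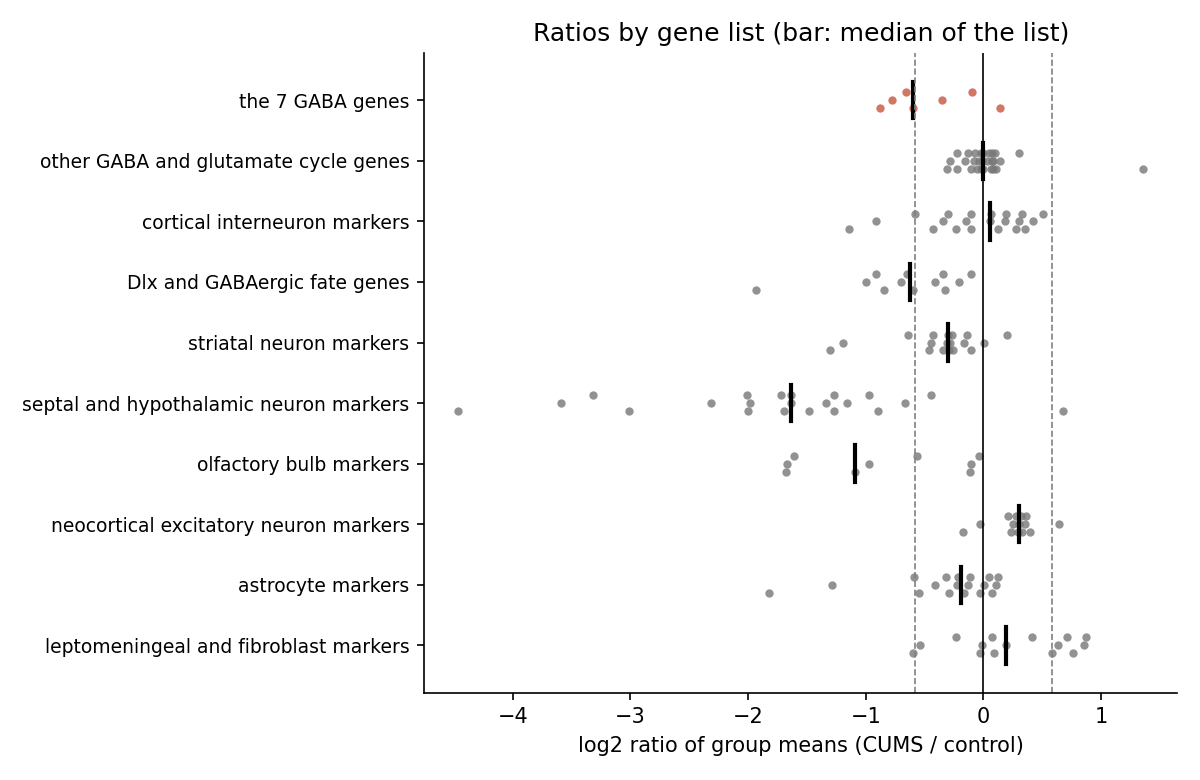
Log2 ratio of CUMS over control for each gene with at least 0.5 RPKM in either group, by list, with the 7 GABA genes in red, a black bar at the median of each list and dashed lines at 1.5-fold. S100a5 and Omp, which were listed at 0.01 in CUMS, are not drawn. The median of the 7 genes (-0.60) lies near that of the Dlx and GABAergic fate genes (-0.63), and the median of the cortical interneuron markers (0.05) lies near 0.

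For the transporters of glial and meningeal cells, markers of these cells were described in the same way. Astrocyte markers were lower in 13 of 18 genes, 3 of them by more than 1.5-fold, against 4.42% of all genes with at least 0.5 RPKM. Their median log2 ratio was -0.19, and their sums were 2021 RPKM in control mice and 1795 RPKM in CUMS mice. The highest in level were Glul (-0.22) and Aldoc (-0.17), and the lowest ratios belonged to Agt (-1.82) and Itih3 (-1.29), both of them among the genes that the study lists as lowered. The log2 ratio of Slc6a11 (-0.66) was lower than those of 16 of these 18 markers. Leptomeningeal and fibroblast markers were higher for 10 of the 15 measured, with 5 higher and 1 lower by more than 1.5-fold. Among all genes with at least 0.5 RPKM, 2.78% were higher and 4.42% lower by this much. The median of these markers was 0.19 and their sums were 60.1 and 69.3 RPKM, beside the ratio of 0.14 of Slc6a13. Igf2 and Islr were the highest in level (-0.03 and 0.41), and Col3a1 and Lum had the lowest ratios (-0.60 and -0.54). The part of these cells in the values of Slc6a11 and Slc6a13 was not tested.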

How the data were processed

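The mRNA of 4 libraries (2 control, 2 CUMS, grouped by sample title) had been trimmed by the authors with SolexaQA and aligned to mm10 with TopHat 1.0.12 and Bowtie 0.11.3 (versions per the submitters' processing notes), keeping reads unique to a gene. The authors deposited RPKM averaged over each group, in which 0.01 stands in for 0, together with the gene length used. The authors' columns of log2 ratio, direction and NOISeq probability were not used. Annotation and strand were not given in the sources used here.

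Ratios were computed from the means as deposited, without pseudocount. Fragment numbers were estimated from genes under 1500 bases with a product of mean and length under 300. A step and a trim of the gene length (60 bases in control, 65 in CUMS) were fitted, after which 94.4% of control and 95.2% of CUMS values came out whole to within 0.15 of a step (27.8% and 33.4% with gene lengths shuffled). Equal depth of the libraries of a group was assumed. Ratios have exact Clopper-Pearson 95% intervals, levels exact Poisson ones, and differences between genes normal intervals on the log scale. The code was tested on simulated data (Python 3.11.15, scipy 1.17.1). RNA was isolated from each mouse separately per the methods, but whether a library was 1 mouse or a pool was not given in the sources used here.

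Named were the 7 genes, 2 fixed and the 3 highest and 3 lowest genes of the wider pathway (28 genes; other genes of it are not reported here), and per marker list the 2 highest in level and the 2 lowest ratios; other genes were chosen after their values were seen. Members and lists were chosen with earlier results of these data known. Promoters and microRNAs came from RefSeq (GRCm38.p6; promoters matched for 6 of the 7 genes) and transcripts from GENCODE M21.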

Additional observations from a re-analysis of the deposited data

How the results depend on the processing

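No paired analysis was possible because each group has a mean and no library values, and for the same reason no replicate could be left out and neither limma, edgeR nor NOISeq was run. Of 46 values under alternatives, 43 stayed within 1.5 times the count or, for log2 ratios, within the counting interval. A share of all genes was judged against the sampling error of the main share. Of the log2 ratios 0 changed direction, while counts and shares have no direction. Both rescalings moved every log2 ratio by about 0.015 or less in size, so that they could hardly change a direction. The number of the 7 genes lower by more than 1.5-fold was 4, and it was 0 with a fold above 2. It was 4 under both rescalings and with pseudocounts of 0.5 and 1 RPKM. The share of all genes lower by more than 1.5-fold was 4.42% among genes with at least 0.5 RPKM, 10.6% with no filter and 1.28% with at least 5 RPKM, so that the background depends on the level of the genes. Setting the median log2 ratio of all genes to 0 added 0.015 to every log2 ratio, which left Gad1 at -0.59, at the threshold itself, and setting the totals equal added -0.0076. The counting interval lay below 0 in 6 of the 7 genes as estimated, in 5 with the depth halved and in 6 with it doubled.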
